A study of Mus musculus with 14 samples.

Results

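Meis1 binding in the Hoxb8-FL line was described from 13736 peaks, which are all the peaks of the Meis1 list on the 19 autosomes and chromosome X. They were chosen by factor and chromosome alone, out of 279955 peaks in the lists of 13 transcription factors. Hoxb8-FL is a cultured mouse blood progenitor line, labelled LMPP-like, that was grown in RPMI medium with fetal bovine serum, mercaptoethanol, estradiol, FLT3, penicillin, streptomycin and glutamine and received no further treatment. All 13 factor libraries and 1 IgG library came from this line in these culture conditions, so no other genotype, treatment or time was compared. Chromatin was fixed for 10 min in formaldehyde at 0.4% or 1%, and since the percentage for each factor is not known here, fixation may differ between the lists compared. It was precipitated with an antibody against Meis1 or, in the other libraries, against Tal1, Lyl1, Lmo2, Gata2, Runx1, Erg, Fli1, Spi1, Cebpa, Cebpb, Gfi1 or Gfi1b.

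Each factor had 1 library, so there was no replicate check and no test between libraries, and the values below are descriptions. The lists give positions without read counts, so depth is unknown, and list lengths (3217 peaks for Gata2 to 76378 for Spi1) were not read as amounts of binding. Exact (Clopper-Pearson) 95% intervals stand in parentheses after shares and cover counting error only. Peaks carry no expression values, so the cell type in the label was not checked against its markers, and whether the antibody also took up Meis2 or Meis3 was not tested.

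Meis1 is a homeobox protein of the TALE class, whose members carry an extended loop in the homeodomain. It binds DNA with Pbx proteins and, through them or directly, with Hox proteins, and it is known for its part in blood stem cells, in megakaryocyte formation and, together with Hoxa9, in leukaemia. Its preferred core letters are TGACAG, while Hox proteins with Pbx prefer letters of the form TGATTNAT. Lines of the Hoxb8-FL kind are kept as progenitors by a Hoxb8 protein that responds to estradiol.

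The letters TGACAG stood at the centre of Meis1 peaks far more often than at the centre of peaks of the other factors. Sequence was available for promoters only, as windows of 300 bases (250 before to 50 after the start) from RefSeq on GRCm38.p6, the build of the peak files (mm10). A Meis1 peak overlapped 248 of 21045 such windows of protein-coding genes (1.18%), which belonged to 230 genes and 225 peaks. The sequences shown here are the bases before the start that lie under a Meis1 peak, with TGACAG, its reverse complement or TGATTNAT in capitals, written 5′ to 3′ on the strand of the gene.
Gp9, chr6:87777874-87778069, plus strand: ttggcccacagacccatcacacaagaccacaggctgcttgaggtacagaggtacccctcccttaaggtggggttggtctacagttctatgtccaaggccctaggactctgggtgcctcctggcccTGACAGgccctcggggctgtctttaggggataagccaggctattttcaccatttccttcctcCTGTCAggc
Mcpt8, chr14:56085198-56085447, minus strand: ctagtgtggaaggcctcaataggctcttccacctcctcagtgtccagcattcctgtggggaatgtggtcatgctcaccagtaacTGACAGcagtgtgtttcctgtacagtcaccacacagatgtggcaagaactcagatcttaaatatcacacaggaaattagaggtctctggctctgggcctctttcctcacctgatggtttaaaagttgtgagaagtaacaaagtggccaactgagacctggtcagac
Ctsg, chr14:56102575-56102796, minus strand: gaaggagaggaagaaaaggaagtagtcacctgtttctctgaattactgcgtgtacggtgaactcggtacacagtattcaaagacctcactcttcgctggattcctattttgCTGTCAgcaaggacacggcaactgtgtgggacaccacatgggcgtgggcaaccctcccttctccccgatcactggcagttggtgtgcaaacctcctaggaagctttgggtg
Cd33, chr7:43533172-43533421, minus strand: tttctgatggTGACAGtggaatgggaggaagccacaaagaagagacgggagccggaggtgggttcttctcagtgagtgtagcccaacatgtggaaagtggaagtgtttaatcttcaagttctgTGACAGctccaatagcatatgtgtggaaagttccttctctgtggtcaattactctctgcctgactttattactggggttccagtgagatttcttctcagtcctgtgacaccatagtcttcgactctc
Klhl6, chr16:19983050-19983299, minus strand: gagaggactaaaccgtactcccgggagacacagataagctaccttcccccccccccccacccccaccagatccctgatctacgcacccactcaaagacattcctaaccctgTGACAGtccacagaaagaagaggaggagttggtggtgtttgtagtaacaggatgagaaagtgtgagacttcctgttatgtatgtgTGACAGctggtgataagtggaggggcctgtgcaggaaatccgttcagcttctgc
Trem1, chr17:48232509-48232738, plus strand: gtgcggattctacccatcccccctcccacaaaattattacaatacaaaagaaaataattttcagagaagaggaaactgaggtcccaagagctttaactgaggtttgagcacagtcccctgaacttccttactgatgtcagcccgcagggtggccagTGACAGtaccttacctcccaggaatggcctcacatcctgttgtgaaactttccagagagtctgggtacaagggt
Bfsp2, chr9:103449177-103449426, minus strand: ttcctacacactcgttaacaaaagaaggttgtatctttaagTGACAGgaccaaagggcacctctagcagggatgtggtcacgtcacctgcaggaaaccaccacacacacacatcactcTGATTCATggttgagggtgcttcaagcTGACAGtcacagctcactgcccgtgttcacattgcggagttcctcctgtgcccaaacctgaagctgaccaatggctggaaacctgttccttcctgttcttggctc
Gp9 (a subunit of the platelet receptor for von Willebrand factor), Mcpt8 (a basophil protease) and Ctsg (the neutrophil protease cathepsin G) are genes of the lists described below, and the peaks at Cd33, Klhl6 and Trem1 overlapped 11 of the other 12 factors. All 7 promoters were chosen after their values were seen, as examples with a match under the peak, Bfsp2 because it holds both kinds of motif. They do not show how common a match was.

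In Mcpt8, Cd33, Klhl6 and Bfsp2 the nearest TGACAG lay 2 to 4 bp from the midpoint of the Meis1 peak. It lay 10 bp from the midpoint in Gp9, 40 bp in Trem1 and 86 bp in Ctsg. The Meis1 peak itself was centred 3 bp downstream of the start of Gp9, 53 bp upstream of that of Klhl6 and 160 bp upstream of that of Mcpt8. In Bfsp2 a TGATTCAT lay 28 bp from the midpoint, between the 2 TGACAG. A match to these letters is a description and does not show a bound site. Of the 12 listed genes with a Meis1 peak on the promoter window, Hoxa3, Mitf, Itga2b and Tbp also had 1 TGACAG in the 300 bases, and Syk, Tgif1, Gfi1b, Il7r and Hpgds had none. At Hoxa3 and Mitf it lay outside the stretch that is both under the peak and before the start. Of the 7 promoters whose peak had 11 partners, Hcls1 also held 1, and Cd53, Dnajc10 and Pigv held none.

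Counted on both strands, TGACAG was present in 99 of the 248 promoter windows under a Meis1 peak, or 39.9% (33.8 to 46.3). Of all 21045 windows 18.3% held it, and of the 8467 windows under a peak of another list but not of Meis1 16.4% (15.6 to 17.2). Promoters under Tal1 peaks (28.3%) and Lyl1 peaks (23.8%) came next, and the other 10 lists lay between 14.9% and 17.7%. Where Tal1 or Lyl1 bound a promoter without Meis1, the share was 21.2% (17.4 to 25.4). The longer form TGACAGNT was present in 11.3% (7.63 to 15.9) of the Meis1 promoters and in 4.41% of all.

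Motifs around the midpoint showed a wider gap. Here and in the plot of motifs at peak centres, the 32619 promoter windows of all genes were used, not those of protein-coding genes alone. In 162 windows of 101 bp centred on a Meis1 midpoint, 34.6% (27.3 to 42.4) held TGACAG, against 6.72% of 97857 windows of that length cut from all promoters. Windows on Lyl1 midpoints held it in 13.7% (9.55 to 18.8) and windows on Tal1 midpoints in 13% (9.20 to 17.6), while the other 10 lists lay between 4.55% and 6.68%. TGATTNAT was present in 11.1% (6.72 to 17.0) of the Meis1 windows, in 1.06% of all promoter windows and in at most 2.26% (Gfi1b) of the windows of any other list. Either motif was found in 43.2% (35.5 to 51.2) of the Meis1 windows and in 7.69% of all, and both in 2.47% of the Meis1 windows. By contrast the E-box letters CAGNTG, the kind that Tal1 and Lyl1 complexes bind, were in 19.1% of the Meis1 windows, beside 21.7% of all promoter windows, 41.9% on Tal1 midpoints and 38.5% on Lyl1 midpoints.

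**Figure D1:**
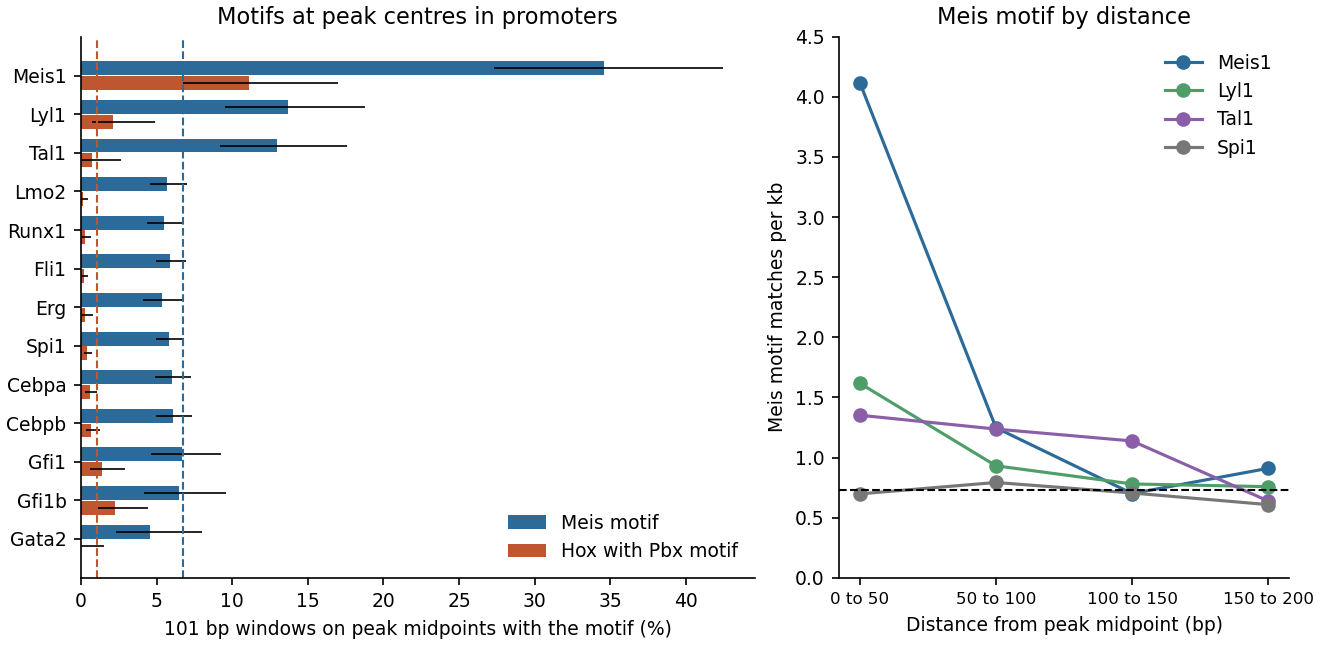
Left, share (%) of 101 bp promoter windows centred on peak midpoints that hold the Meis motif (blue) or the Hox with Pbx motif (orange) in each of the 13 lists, with exact 95% intervals, and the share in all promoter windows as dashed lines; Meis1 stands at 34.6% and 11.1%. Right, Meis motif matches per kb of promoter sequence by distance (bp) from the midpoint for 4 lists, with the level of all promoter windows (0.731) dashed; the Meis1 line starts at 4.12 and falls to 1.25 in the next bin.

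The plot of motifs at peak centres also shows how narrow the Meis1 signal was. TGACAG occurred 4.12 times per kb within 50 bp of a Meis1 midpoint, 1.25 times between 50 and 100 bp and 0.701 times between 100 and 150 bp, where all promoter windows had 0.731. Around Tal1 midpoints the first bin held 1.35 per kb, around Spi1 midpoints 0.698. The intervals of lone and shared Meis1 peaks overlapped, with TGACAG in 30.0% (11.9 to 54.3) of 20 lone windows and 35.2% (27.4 to 43.7) of 142 shared ones. Meis1 windows that overlapped neither Tal1 nor Lyl1 held it in 38.2% (28.1 to 49.1) of 89.

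Part of the Tal1 and Lyl1 values lay in peaks shared with Meis1. Tal1 windows with a Meis1 overlap held TGACAG in 27.9% (17.1 to 40.8) of 61 and those without in 8.61% (5.18 to 13.3) of 209. For Lyl1 the values were 25% (14.4 to 38.4) of 56 and 10.1% (6.10 to 15.5) of 178. TGACAG and CAGNTG can overlap by letters, and did so at 11 of the 122 TGACAG in the Meis1 promoters, among them 1 of those printed for Klhl6. These values describe promoters, where only a small part of the Meis1 peaks lay, and motifs at the remaining peaks were not analysed here.

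Meis1 had the smallest share of peaks near gene starts and the largest median distance to a start of the 13 lists. A midpoint within 1 kb of a start of a protein-coding gene was found for 418 of 13262 peaks on chromosomes with known starts, or 3.15% (2.86 to 3.46). The next lowest shares were those of Tal1 with 3.79% (3.51 to 4.09) and Lyl1 with 5.36% (4.89 to 5.85), and the highest that of Runx1 with 26.5%. The median distance to a start was 53.0 kb for Meis1, 38.8 kb for Gata2, 38.1 kb for Tal1 and 15.8 kb for Runx1. More than 500 kb from a start lay 8.35% of the Meis1 peaks and, the highest share, 9.70% of the Gata2 peaks. Of all Meis1 peaks 50.6% lay inside a protein-coding gene and 14.8% more than 100 kb from any. Exons and introns were not told apart.

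A peak that overlapped no peak of the other 12 lists by at least 1 bp is called lone here. There were 5696 lone Meis1 peaks, 41.5% (40.6 to 42.3) of the list, and 8040 shared ones. Only Gata2 (70.4%) and Spi1 (58.5%) had higher shares of lone peaks, and the next list, Tal1, had 17.9%. Lone Meis1 peaks were farther out, with 1.59% (1.27 to 1.95) within 1 kb of a start and a median of 74.1 kb, against 4.26% (3.82 to 4.73) and 41.3 kb for shared ones. They lay more than 100 kb from any protein-coding gene in 19.7% of cases. Another factor's midpoint lay within 1 kb of 8.60% of the lone peaks and within 10 kb of 53.3%. On chromosome X 145 of 272 Meis1 peaks (53.3%) were lone, and on the autosomes 36.6% (chromosome 15) to 45.3% (chromosome 12).

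Spi1 (also known as PU.1) and Lmo2 overlapped the most Meis1 peaks. Spi1 covered 40.9% (40.1 to 41.7), Lmo2, the bridging protein of the Tal1 and Lyl1 complexes, 39.6% (38.8 to 40.4), Cebpb 37.0% and Cebpa 36.3%. The ETS factor Fli1 covered 31.8%, Tal1 30.4%, Lyl1 22.1%, Runx1 20.3%, the repressor Gfi1 16.7%, Erg 16.0%, Gfi1b 14.4% and Gata2 1.32%. Seen from the partner's list the order was another one. Of the Lyl1 peaks 34.0% (33.0 to 35.0) overlapped Meis1, the highest share, while Erg, Tal1, Gfi1, Runx1, Gfi1b, Lmo2 and Fli1 lay between 19.8% and 24.3% and Spi1 at 7.35% (7.17 to 7.54). When every list was cut to its first 3217 lines, the length of the shortest, Lyl1 was first with 21.9%, followed by Tal1 (20.8%) and Lmo2 (20.4%), and Spi1 had 7.06%.

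**Figure D2:**
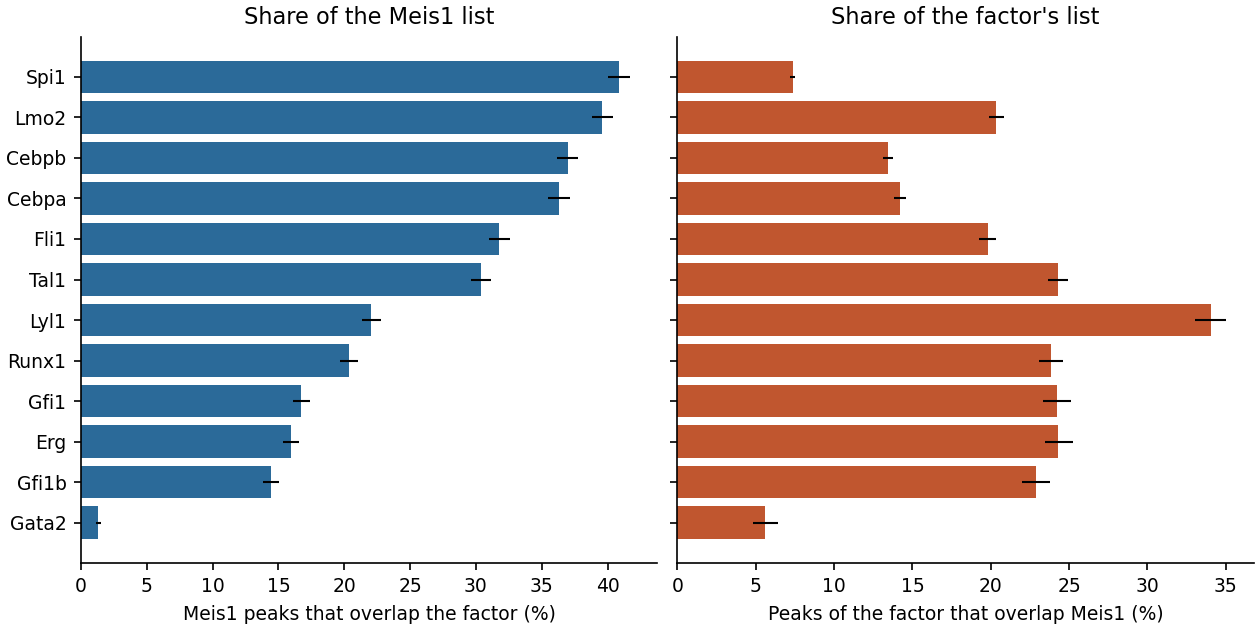
Left, share (%) of the 13736 Meis1 peaks that overlap each of the 12 other factors; right, share (%) of each factor's own peaks that overlap Meis1; lines are exact 95% intervals. Spi1 leads on the left with 40.9% and is near the bottom on the right with 7.35%, where Lyl1 leads with 34.0%.

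By family, 70.7% (69.7 to 71.7) of the shared Meis1 peaks held Tal1, Lyl1 or Lmo2, 69.8% Spi1, 69.2% Cebpa or Cebpb, 54.8% Erg or Fli1, 34.8% Runx1, 33.6% Gfi1 or Gfi1b and 2.25% Gata2. All of Tal1, Lyl1 and Lmo2 were at 2843 shared peaks (35.4%), and Lmo2 without Tal1 and Lyl1 at 1375 (17.1%). Partners came in many sets: 746 of 4095 possible ones were seen. The commonest was Spi1 with no other (713 peaks), then all 11 factors other than Gata2 (498), then Cebpa with Cebpb (391). Of 1215 Meis1 peaks with a single partner, Spi1 was that partner in 58.7%, Lmo2 in 135, Lyl1 in 2 and Erg in 1. A shared Meis1 peak had a median of 5 partners, and 1088 peaks had 10 to 12.

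Within shared pairs, Meis1 midpoints lay a median of 47 bp from those of Fli1, 48 bp from Lmo2, 49 bp from Lyl1, 50 bp from Tal1 and Runx1, and 57 bp from Spi1 and Cebpb. Members of known complexes were closer together, with 18 bp between Lyl1 and Lmo2, 22 bp between Lyl1 and Tal1 and 14 bp between Cebpa and Cebpb. Ranked by closeness among all 78 pairs of lists, those with Meis1 took places 45 to 77. The common peak width of 400 bp limits how far apart 2 midpoints in a shared pair can be.

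Meis1 was present more often the more other factors a region held. Peaks that touched or overlapped were merged into 121980 regions, of which 13727 held Meis1. Among regions with 1 other factor 1.84% (1.73 to 1.94) also held Meis1, with 4 others 12.8% (11.9 to 13.7), with 7 others 25.9% (24.1 to 27.7) and with 11 others 59.3% (56.1 to 62.5). Merged regions with more peaks are also wider. Regions with all 6 of Tal1, Lyl1, Lmo2, Runx1, Erg and Fli1, known together with Gata2 as the heptad of blood stem cell factors, held Meis1 in 1394 of 3057 cases, or 45.6% (43.8 to 47.4).

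The same number of other factors came with less Meis1 near gene starts. With 4 others Meis1 was in 3.23% of regions within 1 kb of a start and 15.3% of those farther away, and with 8 others in 15.7% and 36.7%. The pooled shares and the ratios that follow are not matched for the number of other factors. Of regions with 4 or more other factors, 6.69% (5.84 to 7.61) of those within 1 kb of a start held Meis1, 20.3% (18.5 to 22.1) of those at 1 to 5 kb, 25.7% (24.8 to 26.7) at 5 to 50 kb and 31.5% (30.4 to 32.6) beyond 50 kb. The ratio of the share within 1 kb to the share beyond was 0.244 for Meis1, the lowest of the 13 factors when each was set against the others in this way. Tal1 had 0.250 and Lyl1 0.296, the next was Gfi1b with 0.682, and Gata2 had the highest ratio, 2.32.

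**Figure D3:**
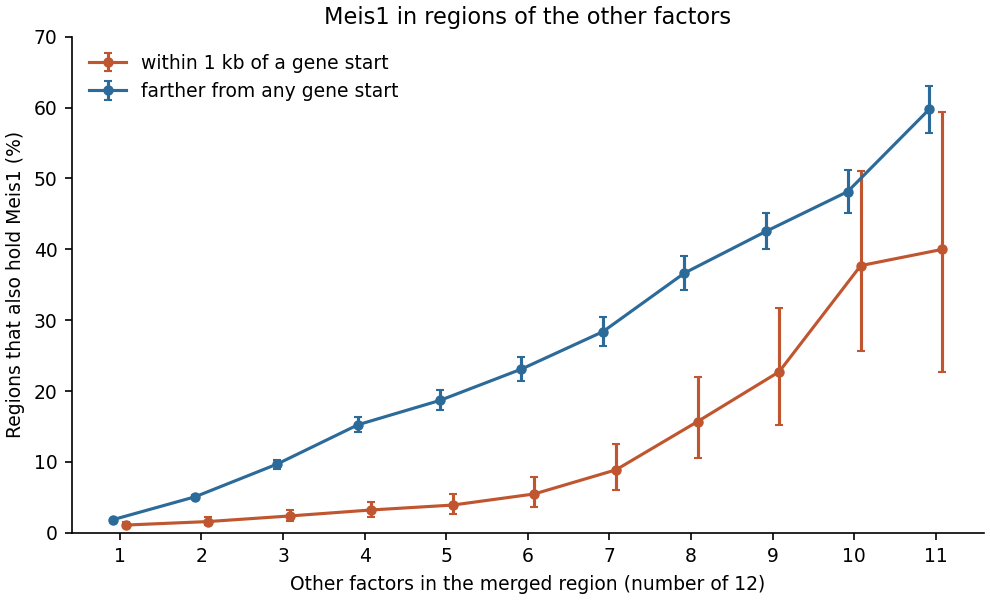
Share (%) of merged regions that also hold Meis1, by the number of other factors in the region, for regions within 1 kb of a gene start (orange) and farther away (blue), with exact 95% intervals and points set slightly apart for legibility. The share rises with the number of factors in both, from 1.10% to 40.0% near starts and from 1.87% to 59.8% away from them, and near starts it is below the other at every number from 1 to 11.

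As the plot of regions by number of factors shows, the intervals of both classes overlapped at 10 and 11 other factors and were apart from 1 to 9. Which factors were present also went with Meis1, in regions that were not matched for the number of other factors. The Meis1 share rose with that number, and the part of the number in the values below was not tested. In regions with 4 to 8 other factors more than 5 kb from a start, Meis1 was in 26.7% (25.7 to 27.8) of those with Tal1 and 17.2% (16.2 to 18.2) of those without. For Lmo2 the values were 24.1% and 13.9% (12.3 to 15.6), for Cebpa 25.3% and 17.5%, and for Lyl1 27.4% and 20.2%. Spi1, Gata2 and Erg went the other way. Meis1 was in 21.7% (20.9 to 22.5) of these regions with Spi1 and 26% (24.3 to 27.8) without, in 14.0% (9.34 to 19.8) with Gata2 and 22.7% (22.0 to 23.5) without, and in 20.5% (19 to 22) with Erg and 23.3% (22.4 to 24.2) without.

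Shared and lone peaks were at different places in the deposited list. The lines of the Meis1 list are not in order of position, and the sources used here do not say what orders them. When the lines were cut in order into 10 equal bins, 3.13% (2.27 to 4.19) of the peaks in bin 1 were lone and the mean number of partners was 6.63, and in bin 10, 77.3% were lone with a mean of 0.940. The first line, on chr14:60666269-60666668 inside Spata13, overlapped all factors but Gata2. Line 2, on chr15:63603080-63603479, had 9 partners and lay 173 kb from Gsdmc, and lines 3 to 5 had 5, 9 and 7 partners.

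**Figure D4:**
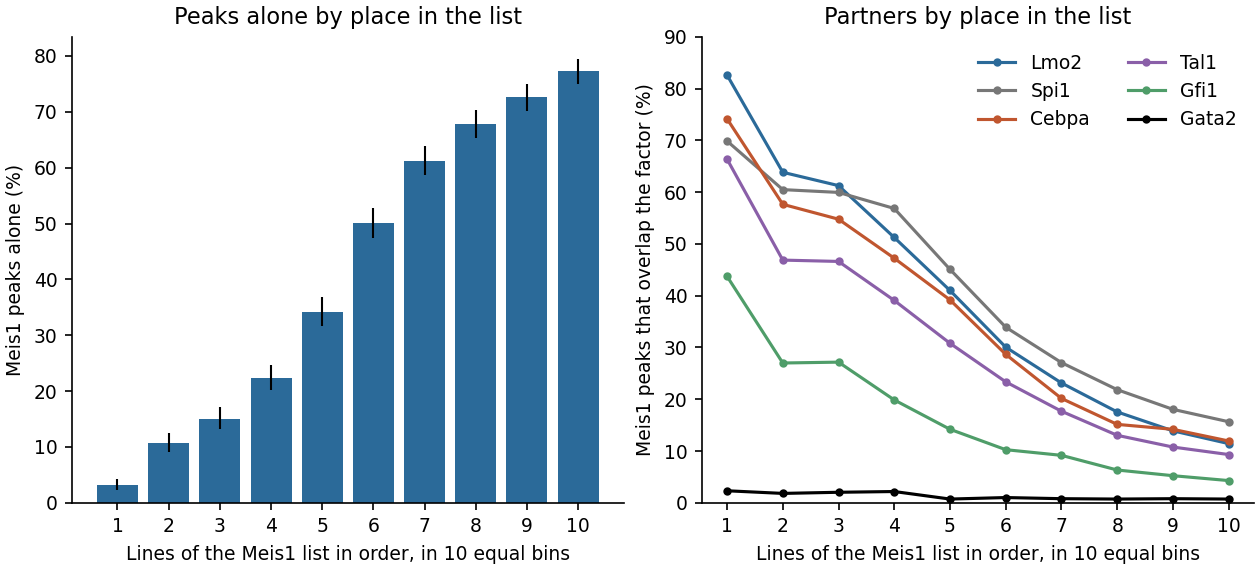
Left, share (%) of Meis1 peaks that are lone in each of 10 equal bins of the lines of the Meis1 list, with exact 95% intervals; right, share (%) of Meis1 peaks in each bin that overlap Lmo2, Spi1, Cebpa, Tal1, Gfi1 or Gata2. Lone peaks go from 3.13% to 77.3%, while overlap with Lmo2 goes from 82.6% to 11.4% and with Spi1 from 69.9% to 15.7%.

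Every factor in the plot of partners by place in the list was lower in bin 10 than in bin 1, and of those plotted Lmo2 led in bins 1 to 3 and Spi1 from bin 4 on. At promoter midpoints TGACAG was in 35.0% (25.8 to 45) of the windows of the first 50% of the lines and in 33.9% (22.1 to 47.4) of those of the other 50%. TGATTNAT was in 14.6% (8.39 to 22.9) and 5.08% (1.06 to 14.1), and the intervals overlapped for both motifs.

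Meis1 peaks were then assigned to genes. A locus is the gene body with 50 kb either side, and of 21631 protein-coding loci 50.7% held at least 1 Meis1 peak, 26.4% a lone one, 36.0% a shared one and 11.2% 3 or more. These shares are the background for the gene lists below, which are read as counts only. Of the 10975 loci with a Meis1 peak 145 held no peak of another factor, and 276 held none of Spi1. Most loci of this size held other factors in any case: of all 21631, 84.8% held Spi1, 75.6% Cebpb and 74.4% Cebpa. By nearest gene, 6472 genes had at least 1 Meis1 peak, 3478 had exactly 1 and 75 had 10 or more.

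The Meis1 gene itself (chr11:18880428-19019651) had 12 Meis1 peaks in the locus (the gene and 50 kb either side), 1 of them lone, and peaks of all 13 factors. Among the genes named here only Lrmda, Sfi1 and Pde4d had more. The peak on chr11:18924888-18925287, 93.9 kb downstream of the start and inside the gene, overlapped all 12 other factors. The peak on chr11:18969987-18970386, 48.8 kb downstream of the start, overlapped 11, all but Gata2, and another on chr11:18883443-18883842 overlapped 9, without Gata2, Lyl1 and Spi1. The peak closest to the start, on chr11:19018448-19018847, lay 0.322 kb downstream of it and overlapped Cebpa, Cebpb, Gfi1, Gfi1b and Lmo2. As the nearest gene, Meis1 had 21 peaks.

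Of the 11 TALE genes 8 (72.7%) had a Meis1 peak in the locus, beside 50.7% of all loci. Cebpb and Spi1 peaks were in 100% of these 11 loci, Cebpa peaks in 90.9% and Lmo2 peaks in 72.7%. The rest had 45.5% (Gata2) to 63.6%. Pbx proteins are the DNA-binding partners of Meis1. Pbx4 had 1 lone Meis1 peak 34.2 kb outside the gene, and Pbx3, which is known as a partner of Hoxa9 and Meis1 in leukaemia, 2 shared ones. Of the Pbx3 peaks, that on chr2:34359924-34360323 overlapped Cebpa, Cebpb, Fli1, Lmo2 and Spi1. Pknox2, a relative of Meis1, held 3 peaks, all lone. Meis3 had 1 peak with 4 partners, Tgif2, a TALE repressor, 1 with 6, and its relative Tgif1 3 with 1, 5 and 6 partners. Meis2, Pbx2 and Pknox1 had none in the locus.

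Of 39 Hox genes 23 (59.0%) had a Meis1 peak in the locus, beside 50.7% of all loci. Spi1 peaks were in 100% of the 39 loci and those of Cebpb, Fli1 and Gfi1b in 82.1%. Gfi1 had 79.5%, Cebpa 66.7%, Erg 64.1% and the rest 0% (Lyl1) to 56.4%. Neighbouring Hox genes share peaks, and the Meis1 peaks in these loci were 8 distinct ones, 5 of them lone. With 50 kb either side, the Hoxa cluster held 4, Hoxb 3, all lone, Hoxc 1 and Hoxd none. Hoxa9, the Hox gene best known for acting with Meis1, had a peak on chr6:52226357-52226756, inside the gene and 0.814 kb downstream of the start, that overlapped Cebpa, Cebpb, Fli1, Gfi1 and Gfi1b. Peaks on chr6:52211589-52211988 and chr6:52213278-52213677, at Hoxa3, overlapped Lmo2 and Runx1, and Cebpa and Cebpb. At Hoxb, a lone peak lay inside Hoxb6 (chr11:96294459-96294858), 1 inside Hoxb3 and 1 at 2.91 kb from Hoxb9. Within the same limits the Lyl1 list had no peak at any of the 4 clusters, and Spi1 had 20 at Hoxa and 16 at Hoxb. Each of the other lists had 2 or fewer at Hoxb.

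Genes known to act with or downstream of Meis1 and Hoxa9 had a Meis1 peak in 15 of 18 loci (83.3%), and 8 of the 18 had 3 or more. Trib2 and Id2 were among those without one. Of the other lists, Gfi1 and Gfi1b had a peak in 83.3% of these loci, Gata2 in 33.3% and the rest in 88.9% to 100%. Flt3, a receptor kinase of early blood progenitors, held 3 peaks inside the gene, with 11, 10 and 8 partners, on chr5:147366367-147366766, chr5:147340944-147341343 and chr5:147388981-147389380. Myb, a regulator of progenitor growth, had 1 peak, 41.1 kb outside the gene, with 10 partners. Syk, a kinase of receptor signalling, held 5 shared peaks, among them 1 centred 5 bp upstream of a start. Bcl2, which protects from cell death, held 6, 5 of them shared.

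Of the loci of the 13 factors assayed, 11 held Meis1 (84.6%), and 5 of their 50 distinct peaks were lone (10.0%, where 38.3% of the peaks in all loci were). The Lyl1 and Tal1 loci had none. A high share was not particular to Meis1: Gfi1b peaks were in 84.6% of these loci, Gfi1 peaks in 92.3%, Gata2 peaks in 46.2% and those of each remaining list in 100%. Erg held 9, and the one on chr16:95439171-95439570, inside the gene, overlapped all 12 other factors and is among the 5 narrowest merged regions with all 13. Runx1 also held 9, of which 8 were shared, the most crowded of them on chr16:92800858-92801257 with 11 partners and without Lmo2. Cebpa had 2 shared peaks with up to 12 partners, and Gfi1b 4 shared ones, including 1 centred 25 bp downstream of its start.

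Megakaryocyte and platelet genes had Meis1 in 18 of 20 loci, all but Gp6 and Tubb1, beside 50.7% of all loci. A high share was not particular to Meis1 here either. Lmo2 peaks were in 100% of these loci, those of Cebpa, Cebpb and Spi1 in more than Meis1, and those of Fli1 and Runx1 in as many. Erg, Gata2, Gfi1, Gfi1b, Lyl1 and Tal1 peaks were in fewer. The Gp9 promoter shown above carried 1 of its 4 peaks, with 8 partners. Itga2b, the alpha chain of the platelet fibrinogen receptor, had a peak 330 bp upstream of the start with 10 partners, and Itgb3, the beta chain of that receptor, held 5 shared peaks. Pf4, platelet factor 4, had a peak with 11 partners 30.2 kb upstream of the start. Vwf held 1 peak with 10 partners and 1 lone one. Mast cell and basophil genes had Meis1 in 12 of 13 loci, all but Fcer1a. Cebpa, Cebpb, Fli1, Lmo2 and Spi1 had the same share, 92.3%. Mcpt8 held 5 shared Meis1 peaks, Il1rl1, a cytokine receptor, 3 shared and 1 lone, and Mitf, a mast cell regulator, 1 shared and 3 lone. The Mcpt8 locus overlaps that of Ctsg, a granulocyte gene, and all Meis1 peaks counted at Ctsg are among those counted at Mcpt8.

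Stem and multipotent genes had Meis1 in 20 of 24 loci (83.3%), without Ly6a, Eng, Tek and Robo4. Cebpb also had 83.3% of these loci, Spi1 100%, and the other lists 20.8% (Gata2) to 79.2%. Meis1 peaks at these genes were lone in 17 of 47 cases (36.2%). Mllt3 held 7, of which 6 were shared, and Angpt1, a ligand of the Tek receptor, 6 shared ones, 3 of them with 9 partners. At Hoxb4 all 3 peaks were lone. They were the 3 Hoxb peaks described above, 17.2 to 49.8 kb outside Hoxb4. Both peaks inside Mecom were lone as well. Cd34 had 2 peaks with 11 partners inside the gene, on chr1:194943399-194943798 and chr1:194946276-194946675, and Kit, the receptor of stem cell factor, had 3 with at most 3 partners, all outside the gene.

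Granulocyte and monocyte genes had Meis1 in 11 of 22 loci, and 2 of their 25 distinct peaks were lone. How this stood to all loci changed with the setting. It was close to the 50.7% of all loci with 50 kb either side, and the same 11 of 22 stood beside 27.1% with 10 kb, 77.3% beside 67.4% with 100 kb, and 40.9% beside 31.9% with the first 50% of the lines. Mpo, the peroxidase of neutrophil granules, and Ctsg each held 4 shared Meis1 peaks with up to 11 partners. Those of Ctsg also lie in the Mcpt8 locus. The genes of this list without a Meis1 peak were S100a8, S100a9, Ltf, Camp, Lyz2, Csf3r, Cebpe, Ly6c1, Fcgr3, Klf4 and Cd14. Erythroid genes had Meis1 in 13 of 19 loci, B cell genes in 12 of 19, endothelial genes in 9 of 15 and T cell genes in 8 of 15. In the same order, with 10 kb they stood at 31.6%, 42.1%, 26.7% and 33.3%, beside 27.1% of all loci. With 100 kb they stood at 68.4%, 78.9%, 73.3% and 93.3%, beside 67.4%. With the first 50% of the lines they stood at 52.6%, 47.4%, 53.3% and 40.0%, beside 31.9%. At B cell genes 4 of 29 peaks were lone, and Blnk and Dntt, neighbours whose loci overlap, held 6 shared ones each.

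Lists of genes from other tissues gave mixed values. Meis1 was in 9 of 20 neuron loci, 10 of 20 liver loci and 15 of 20 loci of heart and skeletal muscle genes, so a share above the 50.7% of all loci was not restricted to blood genes. Of the distinct peaks at muscle genes 12 of 24 were lone, and at liver genes 9 of 16. With 10 kb in place of 50 kb either side, all loci had 27.1%, muscle genes 30.0%, stem and multipotent genes 62.5%, platelet genes 55.0% and the Meis1 and Hoxa9 genes 66.7%. In the same order, with 100 kb these lists stood at 19 of 20, 22 of 24, 20 of 20 and 17 of 18, beside 67.4% of all loci. With the first 50% of the lines they stood at 11 of 20, 14 of 24, 13 of 20 and 11 of 18, beside 31.9%. Muscle genes were thus above all loci in each setting, and by the least with 10 kb. Housekeeping genes had Meis1 in 9 of 20 loci (45.0%), and in 15% with the 10 kb flank, both below all loci. They were above all loci with 100 kb either side (14 of 20, beside 67.4%) and with the first 50% of the lines (8 of 20, beside 31.9%), so no direction held for this list.

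**Figure D5:**
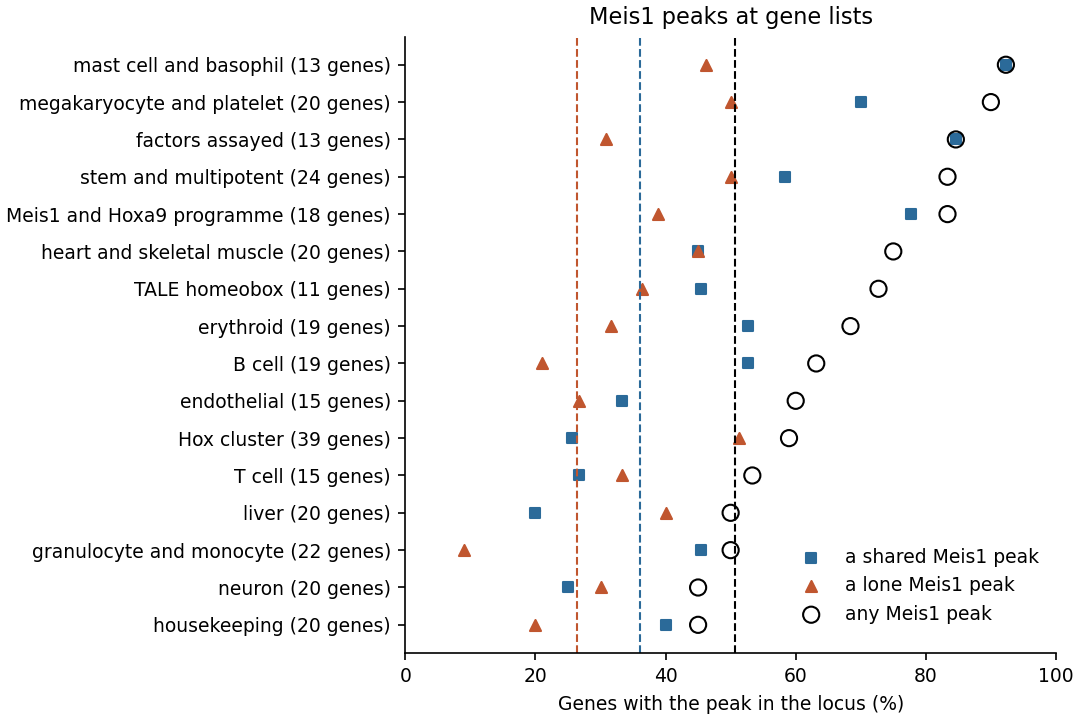
Share (%) of the genes of each of 16 lists with a Meis1 peak in the locus (open circles), with a shared one (blue squares) and with a lone one (orange triangles); dashed lines give the shares of all 21631 protein-coding loci (50.7%, 36.0% and 26.4%). Mast cell and platelet genes, the factors assayed, stem cell genes and the Meis1 and Hoxa9 genes lie to the right of 80%. Housekeeping, neuron, granulocyte and liver genes lie at or below 50%.

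The plot of gene lists shows that shared and lone peaks separated the lists in different ways. Granulocyte genes had a shared peak in 10 of 22 loci and a lone one in 2, whereas Hox genes had a lone one in 20 of 39 and a shared one in 10. Neighbouring Hox genes share peaks, so their counts are not independent. By distinct peaks, 5 of 8 were lone at Hox genes and 2 of 25 at granulocyte genes. Loci differ in length, with a list median from 104 kb (Hox clusters) to 160 kb (Meis1 and Hoxa9 genes) beside 117 kb for all loci, and the part of locus length in these counts was not tested.

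The genes nearest to the most Meis1 peaks were Zfp608 (27 peaks), Lrmda, Pik3r1 and Sfi1 (24 each), Meis1 (21), Efna5 and Trps1 (20 each), Pde4d (18), Rbfox1 (17) and Runx1 (16). Peaks at Zfp608 and at Pik3r1, the regulatory subunit of a lipid kinase, were mostly shared, in 19 of 27 and 18 of 24. Rbfox1, a splicing factor of neurons and muscle, stood apart with 16 of 17 lone. By lone peaks Rbfox1 (16) and Ntm (10) led, and Adgrl2, Dab1, Efna5, Sfi1, Tenm4 and Zfp608 (8 each) and Arhgef28 (7) were among those that followed.

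Several of these genes are very long, among them Rbfox1 (1528 kb) and Dab1 (1125 kb). Inside protein-coding genes of 500 kb or more 54.1% of the Meis1 peaks were lone, against 41.4% in genes of 100 to 500 kb and 33.5% in those under 20 kb. Per Mb of gene there were 2.18 lone peaks in genes under 20 kb, 2.42 at 20 to 100 kb, 3.18 at 100 to 500 kb and 2.14 at 500 kb or more. Shared peaks stood at 4.33, 4.71, 4.5 and 1.81 per Mb in the same classes.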

How the data were processed

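Lists of ChIP-seq peaks for 13 factors, 1 library each, were used, and the IgG library was not analysed here. The authors deposited peak positions on mm10 (chromosome, start and end, in base pairs). There is no count, signal or score in the deposited files. The tools named in the submitters' processing notes are MACS2, Bowtie2 and bedtools. The sources used here do not give calling thresholds or the use of IgG. Every Meis1 peak is 400 bp wide. Lines off the autosomes and X (3 in all) were left out.

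Overlaps of 1 bp or more, distances and motif matches were computed in Python 3.11.15 (numpy 2.4.6, pandas 2.3.3, scipy 1.17.1). Overlaps and the search for the nearest gene were checked on simulated positions. That check did not cover motif matches. Genes came from RefSeq (GRCm38.p6). Starts were known for 17274 of 21631 protein-coding genes and for none on chromosome 18, so distances to starts use 13262 peaks. All 308 entries of the 16 gene lists were found. Members and lists were chosen with earlier results of these data known. Genes named are all TALE genes, per list the 3 with the most Meis1 peaks, and the 10 nearest to the most peaks. By the same rule, genes without a Meis1 peak are named where a list has 5 or fewer. Other genes, such as Flt3, Myb, Cd34, Kit, Mecom, Pf4, Itga2b and Vwf, were added after their values were seen. So were the granulocyte and monocyte genes without a peak. A few genes that this rule names are not reported here.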

Additional observations from a re-analysis of the deposited data

How the results depend on the processing

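No paired analysis was possible because each factor has 1 library. Depth and calling thresholds are unknown, and the intervals cover neither. The lone share of 41.5% became 43.8% when an overlap had to reach 200 bp, 37.9% when midpoints within 1 kb counted as shared, 46.7% without the Spi1 list and 29.7% when the first 50% of the lines of every list were used. Without the peaks nearest to Sfi1, an alternative chosen after seeing the data, it stayed at 41.5%. Overlap with Tal1, Lyl1 or Lmo2, 41.4%, became 39.2% at 200 bp and 45.4% with the first 50% of the lines. The leading partner changed from Spi1 (40.9%) to Lyl1 (21.9%) when every list was cut to the length of the shortest. The share near a start, 3.15%, became 10.2% with a window of 5 kb, 4.97% with the starts of all genes and 3.91% with the first 50% of the lines. Loci with Meis1, 50.7%, became 27.1% with 10 kb either side, 67.4% with 100 kb and 31.9% with the first 50% of the lines. TGACAG in 39.9% of the Meis1 promoters became 36.8% with the first 50% of the lines, and the longer TGACAGNT was found in 11.3%. The cause of these changes was not tested beyond what each setting counts.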

Other observations

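One stretch inside Sfi1, chr11:3152940-3196913 (44.0 kb), held 24 Meis1 peaks, where neighbouring Meis1 midpoints on a chromosome lay a median of 80.3 kb apart. The Gata2 list had 15 peaks in it and the Tal1 list 14, Spi1 had 2 and Runx1 1, and the other 8 lists had none. Of the 24 Meis1 peaks 8 were lone and none had more than 3 partners. The narrowest merged regions with all 13 factors lay nearest to Gm38481, Coa7, Cc2d2b, Armc2 and Erg, and spanned 454 to 481 bp.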
